A study of Mus musculus with 9 samples.

Results

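The hepatectomy course joins 3 XBP1 chromatin immunoprecipitation and sequencing (ChIP-seq) libraries of mouse liver, taken before surgery (basal), 6 h after partial hepatectomy and 48 h after partial hepatectomy. Its members are the sites of these libraries: peaks of the 3 deposited lists that overlapped by at least 1 bp were joined, and each joined region was classed by the lists that had a peak there. This gave 22728 sites. Merging all 8 deposited lists of the series gave 28177 regions, and merging the basal list with both sham lists gave 23212. A peak of basal liver lay in 2453 sites, a 6 h peak in 22063 sites and a 48 h peak in 7012 sites.

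All 3 libraries came from livers of wildtype C57Bl6-J mice without XBP1 silencing, and the surgery was done at 8 weeks of age. XBP1 was precipitated with the antibody M-186 from liver tissue fixed with formaldehyde. The sham-operated livers of 6 h and 48 h are likewise wildtype and unsilenced. The 3 silenced livers (basal, 6 h and 48 h after hepatectomy) had an adenovirus with a hairpin RNA against XBP1 for 7 days, with clodronate liposomes, which deplete macrophages, given before the virus. A control virus is named in the labels, which leave unsaid if it was given to the unsilenced mice and if a library is 1 animal or a pool. Each condition has 1 library, so no change with time could be compared with the variation among replicates, and no test was made. Intervals are 95% Clopper-Pearson intervals and cover counting error only. Liver tissue was used, so cell types cannot be told apart. The tissue could not be checked against marker genes, since no gene was assigned to any site. The sources used here give no read numbers, so a shallower library cannot be told apart from fewer bound sites. By the order of their peak scores, both 48 h libraries stood nearer to the 6 h library of the opposite operation than to that of their own. The 48 h hepatectomy order was closer to that of the 6 h sham library (Spearman's rho 0.79) than to that of the 6 h hepatectomy library (0.67), and the 48 h sham order was closer to that of the 6 h hepatectomy library (0.76) than to that of the 6 h sham library (0.68). An exchange of these 2 labels was not tested and would change what every 48 h value stands for, so the main counts are also given with the 48 h sham list in place of the 48 h hepatectomy list.

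XBP1 is a transcription factor that acts in the unfolded protein response. Stress in the endoplasmic reticulum activates IRE1, which splices the XBP1 messenger RNA so that it encodes the active factor, and the active factor binds near genes for protein folding, secretion and degradation. Hepatocytes secrete most plasma proteins and depend on this response. After partial hepatectomy the remaining liver mounts an acute phase response within hours and later replicates its DNA and regrows.

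Most sites of the course were found at 6 h and in neither of the other lists. This class held 15433 sites, 67.9% of the 22728 (67.3 to 68.5%). A further 4220 sites (18.6%, 18.1 to 19.1%) had a peak at 6 h and at 48 h but none in basal liver. Present throughout were 2147 sites (9.45%, 9.07 to 9.83%). The other 4 classes were small. Sites of 48 h alone numbered 622 (2.74%), and 263 sites (1.16%) had a basal and a 6 h peak but none at 48 h. Only 20 sites were found in basal liver alone, and 23 in basal liver and at 48 h with no 6 h peak. The lists were of unlike length, with 2482 basal, 22071 6 h and 7212 48 h peaks. With each list reduced to its 2482 highest-scoring peaks, 1203 sites had a peak in all 3 lists and 684 at 6 h alone, against 641 in basal liver alone and 627 at 48 h alone. Among equally many leading peaks each list thus had a similar number of its own, which the equal list lengths partly impose. With a reciprocal overlap of 50% required, 1424 sites were present throughout, 2344 were shared by 6 h and 48 h only and 2878 were of 48 h alone. With the 48 h sham list in place of the 48 h hepatectomy list, 2016 sites were present throughout, 17258 were of 6 h alone, 2396 were shared by 6 h and 48 h and 130 were of 48 h alone.

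**Figure D1:**
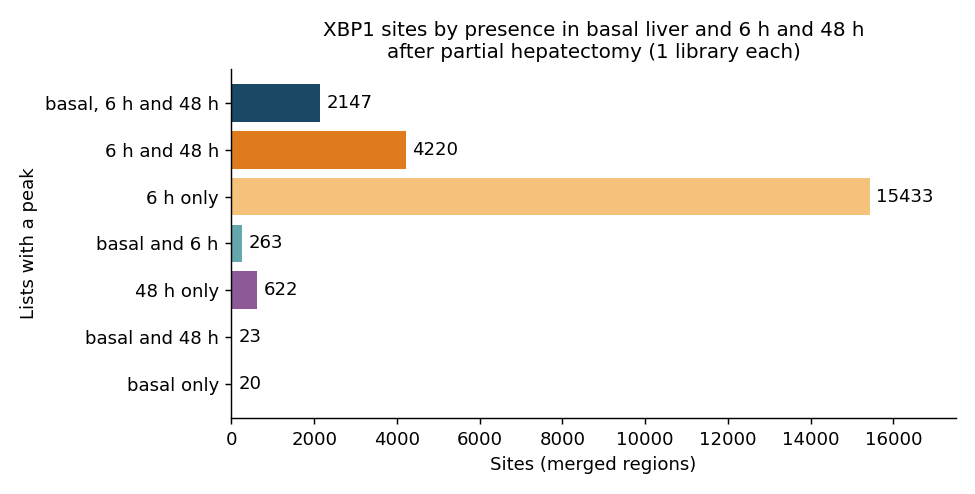
The bars give the number of sites (merged regions, horizontal axis) in each class of presence, with 1 library per time. Sites of 6 h alone number 15433, against 4220 shared by 6 h and 48 h and 2147 present in all 3 lists.

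The classes differed in peak score, which the authors' peak caller gave each peak and which was read as −log10 of a p-value, though its scale is uncertain. It serves here only to order peaks within a list. In the 6 h list, sites present throughout had a median score of 95.68. The median was 33.03 for sites shared by 6 h and 48 h only, 32.15 for sites shared by basal liver and 6 h only, and 14.95 for sites of 6 h alone. In ranks of the 22071 6 h peaks, with rank 1 the highest score, these medians stood at 1452.5, 5993.0, 6171.0 and 13639.0. Sites shared with a single other time thus had similar median places at 6 h whether that time came before or after. The median width of a merged region was 734 bp for sites present throughout, 532.5 bp for those shared by 6 h and 48 h only and 383 bp for those of 6 h alone. Joining overlapping peaks can only widen a region, so part of this order is built in. Sites of 48 h alone had a median width of 225 bp, those of basal liver and 48 h 322 bp, and those of basal liver alone 245 bp. For sites of 48 h alone the highest 48 h score was 37.13, against 84.53 for sites shared by 6 h and 48 h only and 225.5 for sites present throughout.

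Ordered by 6 h score, the 6 h sites changed steadily in makeup. In the highest decile (2206 sites, scores from 71.86 to 828.25), 61.7% were present throughout, 27.3% had a 48 h but no basal peak, 2.22% had a basal but no 48 h peak and 8.75% were of 6 h alone. In the second decile, sites shared with 48 h only were the largest class, at 43.8%, and those present throughout made up 17.8%. In the third decile, sites of 6 h alone reached 56.8%. In the lowest decile they reached 94.5%, and 0.408% of the sites were present throughout.

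**Figure D2:**
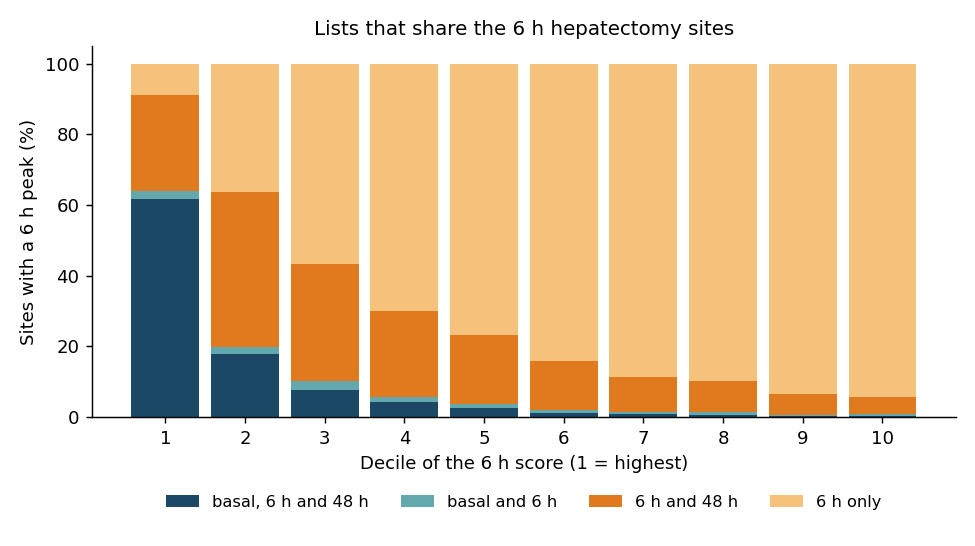
Each bar is a decile of the sites with a 6 h peak, ordered by 6 h score (horizontal axis, 1 is the highest), and the vertical axis gives the percent of its sites in each class. Sites present in all 3 lists take 61.7% of the first decile, sites shared with 48 h alone peak in the second at 43.8%, and 6 h sites without a counterpart take 94.5% of the last.

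Presence in basal liver went with presence at 48 h, also among sites of like 6 h score. Over all 6 h sites, 2147 of the 2410 with a basal peak (89.1%, 87.8 to 90.3%) had a 48 h peak, against 4220 of the 19653 without one (21.5%, 20.9 to 22.1%). Both groups differed in 6 h score, with medians of 87.85 and 17.2. Within the highest decile by 6 h score the shares were 96.5% (95.4 to 97.4%) of 1410 sites and 75.8% (72.6 to 78.7%) of 796 sites. In the fifth decile they were 67.9% (56.8 to 77.6%) of 84 sites with a basal peak and 20.1% (18.4 to 21.8%) of 2122 sites without one. Scores were close there, with medians of 20.74 and 20.73. The share was higher with a basal peak in 10 of 10 deciles. The last 2 deciles held only 14 and 18 sites with a basal peak. Weighted by the sites with a basal peak, the share was 89.1% against 60.2%, a difference of 28.9 percentage points. With the scores split into 50 equal bins the difference was 24.1 points, and it was above 0 in 47 of the 49 bins that held sites of both kinds. In the highest decile the scores still differed, with medians of 147.16 and 92.54.

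The sham list of 48 h, a separate library, was read at these same 6 h hepatectomy sites. In the highest decile 96.6% of the sites with a basal peak and 58.3% of those without one had a sham peak at 48 h. In the fifth decile the shares were 56.0% and 7.82%. With the sham list in place of the hepatectomy list, the weighted shares were 83.7% against 44.0%, a difference of 39.6 points. The difference between both 48 h lists was not tested.

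**Figure D3:**
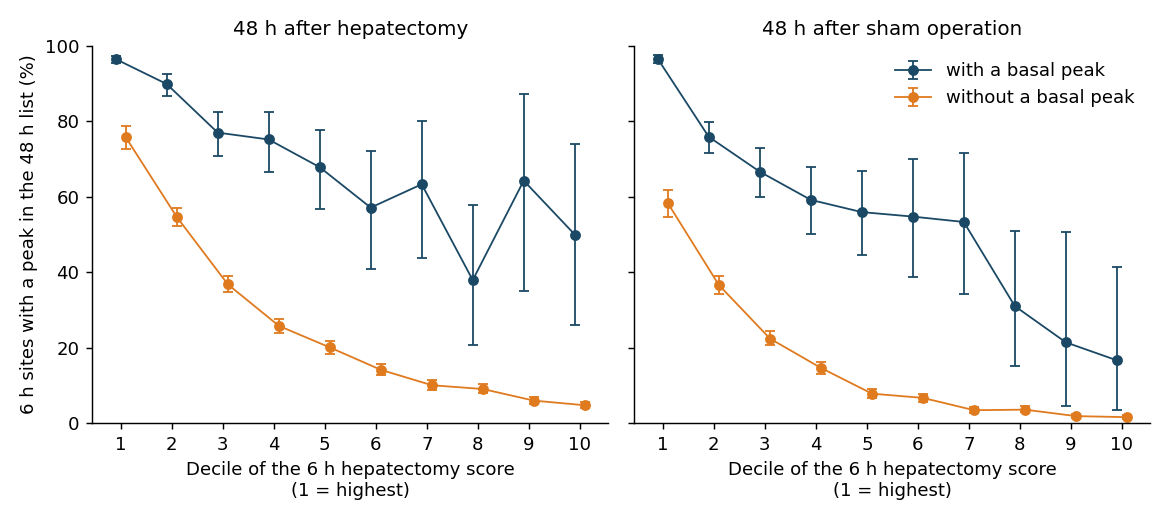
The points give the percent of 6 h hepatectomy sites with a peak in the 48 h hepatectomy list (left) and in the 48 h sham list (right) by decile of the 6 h score, and the bars are 95% Clopper-Pearson intervals. In both panels sites with a basal peak lie above those without one in each decile, at 67.9% against 20.1% in the fifth decile on the left.

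At the sites present throughout, basal and 48 h peaks mostly lay inside a wider 6 h peak. Of the 2147 sites, 2032 had exactly 1 peak in each list. Among these, the basal peak lay wholly inside the 6 h peak at 1930 sites (94.98%) and the 48 h peak did so at 1776 (87.4%). The basal peak lay inside the 48 h peak at 873 sites (43.0%). The midpoints of the basal and the 6 h peak were a median of 53.5 bp apart. The median summed peak width per site was 335 bp in basal liver, 730 bp at 6 h and 412 bp at 48 h. The highest score was 828.25 at 6 h, 542.08 in basal liver and 225.5 at 48 h, and the part of score or depth in the widths was not tested.

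Likeness in the order of sites grouped the libraries neither by operation alone nor by time alone. At the 1859 sites with a peak in all 5 unsilenced lists, the 6 h hepatectomy order was closest to the 6 h sham order (rho 0.79), and next to the 48 h sham order (0.76), while rho with the 48 h hepatectomy order was 0.67. The 48 h hepatectomy order was closest to the 6 h sham order (0.79), and rho with the sham order of its own time was 0.62, the lowest of the 10 pairs. The 48 h sham order had a rho of 0.68 with the 6 h sham order, below the 0.76 with the 6 h hepatectomy order. Both 48 h libraries thus differed from each other more than either did from the 6 h library of the opposite operation. The highest scores fell the same way, at 828.25 in the 6 h hepatectomy list and 773.19 in the 48 h sham list. In the 6 h sham list the highest was 331.58, and in the 48 h hepatectomy list 225.5. The numbers of peaks grouped by time instead. The unsilenced 6 h lists held 22071 hepatectomy and 23087 sham peaks, against 7212 and 4622 in the 48 h lists. Median scores were likewise higher in both of these 6 h lists than in both 48 h lists. Depth is unknown, so scores of different lists may not be comparable, and these values are given side by side only. The labels give no date or batch, an exchange of the labels of both 48 h libraries was not tested, and with 1 library per condition a change of rank with time cannot be told apart from a difference between libraries.

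**Figure D4:**
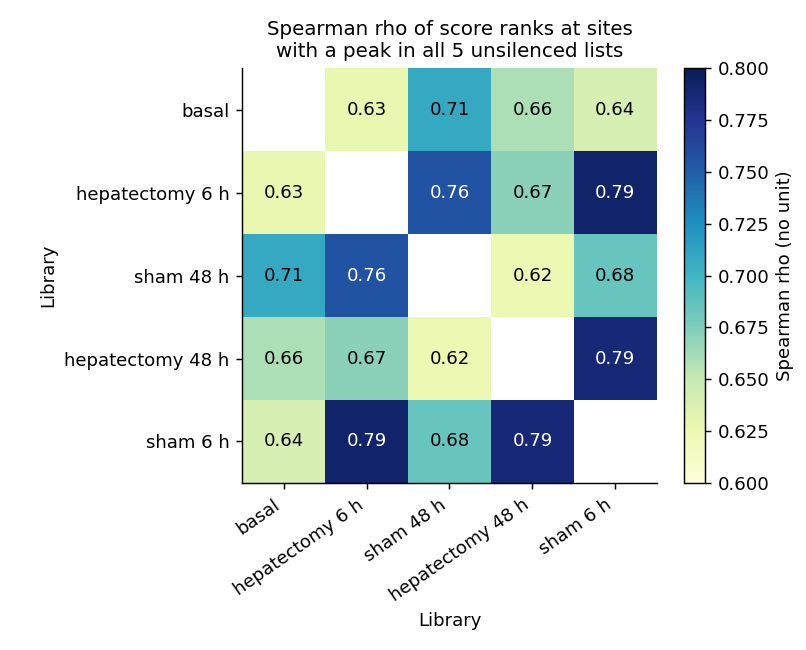
Cells give Spearman's rho (colour, no unit) between the score ranks of each pair of unsilenced libraries over the 1859 sites with a peak in all 5. The pairs hepatectomy 6 h with sham 6 h (0.79), hepatectomy 48 h with sham 6 h (0.79) and hepatectomy 6 h with sham 48 h (0.76) are highest, and hepatectomy 48 h with sham 48 h (0.62) is lowest.

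The 5 leading sites ranked between 1 and 13 in each of the 3 lists. By mean rank over the 3 lists, the first site lay on chromosome 2 (34626722 to 34628400, mm9), with rank 1 in basal liver, 3 at 6 h and 5 at 48 h. The second, on chromosome 10 (86166969 to 86169353), ranked 2, 1 and 9. The third was another site of chromosome 2 (143990559 to 143992434), which ranked 13 in basal liver and 2 at both later times. The fourth, on chromosome 11 (50138575 to 50139889), ranked 3, 9 and 6, and the fifth, on chromosome 3 (65195356 to 65196981), ranked 5, 7 and 7. All 5 had a peak in both sham lists and in the silenced basal and silenced 6 h lists, and the first 4 also in the silenced 48 h list. Of all 2147 sites present throughout, 99.9% had a 6 h and 86.6% a 48 h sham peak. A silenced peak lay at 5.36% of them in basal liver, 77.2% at 6 h and 2.98% at 48 h. The silenced lists held 177 basal, 4325 6 h and 102 48 h peaks. Their median peak widths were 103, 333 and 94 bp, so shares in these lists may not be comparable with each other.

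Over all sites present throughout, the order was shared in part. The 2147 sites were ranked anew among themselves in each list, so that each list ranked the same sites, with tied scores given their mean rank. Of the 100 highest-ranked sites, 69 were shared by basal liver and 6 h, 70 by 6 h and 48 h, and 78 by basal liver and 48 h. Spearman's rho across the 2147 sites was 0.62 between basal liver and 6 h, 0.67 between 6 h and 48 h, and 0.64 between basal liver and 48 h. The sites share their libraries, so these values are a description. With the 48 h sham list in place of the 48 h hepatectomy list, rho was 0.76 with 6 h and 0.70 with basal liver. The median site moved by 324.5 ranks from basal liver to 6 h, which is 15.1% of the list, and by 294 ranks from 6 h to 48 h.

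A move of at least 25% of the sites was counted as a large one. From basal liver to 6 h, 323 of 2147 sites (15.0%) moved up that far and 317 (14.8%) moved down. From 6 h to 48 h, 294 sites (13.7%) moved up and 303 (14.1%) down. Between basal liver and 48 h, 302 (14.1%) moved up and 307 (14.3%) down. The same sites are ranked in each list, so moves up and down balance by construction. Large moves made up 13.7 to 15.0% of the sites in each direction over the 3 pairs of libraries. Scores come in steps, with 362 distinct values among the basal peaks, 1424 at 6 h and 532 at 48 h, so low-scoring sites share ranks.

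**Figure D5:**
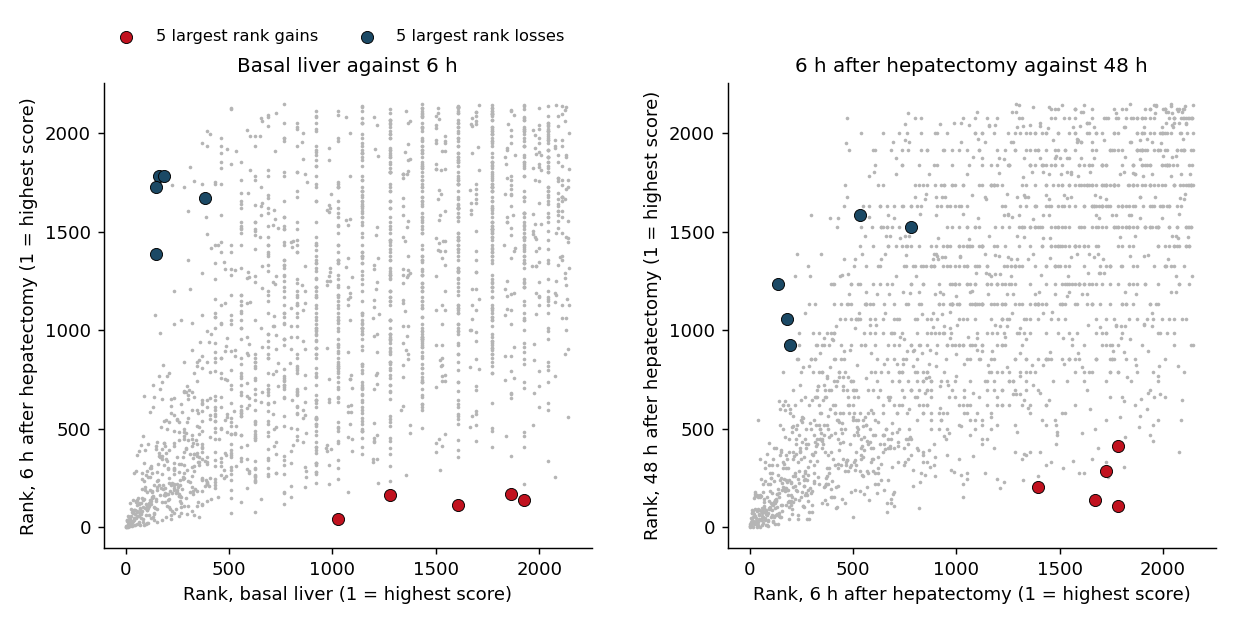
Each grey point is a site present in all 3 lists, with its rank among the 2147 sites in the earlier (horizontal) and the later library (vertical), where 1 is the highest score. Points gather near the diagonal at the lowest rank numbers and fan out below, and coloured points mark the sites with the largest moves among those in the highest decile of at least 1 list, such as the site that went from rank 1924.5 to 138 between basal liver and 6 h.

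Of the 2147 sites, 122 were in the highest decile (ranks up to 214) of all 3 lists. The highest decile of basal liver alone held 40 sites, that of 6 h alone 46 and that of 48 h alone 35. Basal liver and 48 h shared 30 sites there that 6 h lacked, 6 h and 48 h shared 25, and basal liver and 6 h shared 22. These groups were also looked up in the silenced lists. Of the 122 sites leading at all times, 122 had a peak in the silenced 6 h list, 83 (68.0%) in the silenced basal list and 54 (44.3%) in the silenced 48 h list. Of the 46 sites leading at 6 h alone, 46 had a silenced 6 h peak, 2 a silenced basal peak and 1 a silenced 48 h peak. Among the 1827 sites outside the highest decile of every list these counts were 1345 (73.6%), 9 (0.493%) and 4 (0.219%). The other leading groups had similar silenced 6 h counts. These were 39 of the 40 leading in basal liver alone and 30 of the 35 leading at 48 h alone. For basal liver and 48 h they were 29 of 30, for 6 h and 48 h 25 of 25. For basal liver and 6 h they were 22 of 22.

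Among sites in the highest decile of at least 1 list, the largest gains from basal liver to 6 h were at sites of middle or low basal rank. A gain that large can only start from such a rank. A site on chromosome 4 (147965174 to 147966544) ranked 1924.5 of 2147 in basal liver, 138 at 6 h and 1236.5 at 48 h, with scores of 8.98, 368.33 and 18.71. A site on chromosome 5 (34278486 to 34279247) ranked 1862, 171 and 458.5. Another on chromosome 4 (118905994 to 118907035) ranked 1606.5, 112.5 and 348.5. The next were on chromosome 7 (20402570 to 20404496), with ranks 1278.5, 163 and 621.5, and on chromosome 2 (32821495 to 32823243), with ranks 1029, 43 and 545.5. At 48 h all 5 ranked between their basal and their 6 h place. They were chosen by their basal and 6 h ranks, so this too is partly built in. A peak was also found at each of the 5 in the 6 h sham list and in the silenced 6 h list. None had one in the silenced basal or silenced 48 h list. Of all 2147 sites present throughout, 99.9% had a 6 h sham peak and 77.2% a silenced 6 h peak. Only 5.36% had a silenced basal peak and 2.98% a silenced 48 h peak, so these 5 were near the usual pattern.

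The largest losses from basal liver to 6 h, by the same rule, were at sites that were high again 48 h after hepatectomy. Where these sites had a 48 h sham peak, its rank was farther from the top, as given below. A site on chromosome 10 (79227703 to 79228318) ranked 183 in basal liver, 1783.5 at 6 h and 108.5 at 48 h. A second on chromosome 10 (74966411 to 74968126) ranked 146, 1725.5 and 288. On chromosome 4 (117670153 to 117670844) the ranks were 161.5, 1783.5 and 411, and on chromosome 12 (77374955 to 77375690) they were 383, 1671 and 141. A further site of chromosome 12 (119428011 to 119428547) ranked 146, 1387 and 226.5. The first 4 of these were also 4 of the 5 largest gains from 6 h to 48 h. Both moves share the 6 h rank, so this overlap is partly built in. So is a 48 h rank nearer the top than that of 6 h at sites chosen for a low 6 h rank. The remaining gain was on chromosome 4 (139518983 to 139519649), with ranks 509, 1394.5 and 203.5.

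The largest losses from 6 h to 48 h began with the site of chromosome 4 at 147965174 given above. It was followed by sites on chromosome 1 (5072859 to 5073438), with ranks 211 in basal liver, 536 at 6 h and 1582.5 at 48 h, and chromosome 7 (135666562 to 135667971), with ranks 765.5, 179.5 and 1056. A site on chromosome 10 (94879318 to 94879914) ranked 211, 783 and 1524.5, so that it was lower at each later time, as was the site on chromosome 1. The last, on chromosome 18 (57513939 to 57515306), ranked 431, 197 and 926. These sites were chosen by their 6 h and 48 h ranks, so a low 48 h rank is partly built in. Among the 1859 sites in all 5 unsilenced lists, 48 h hepatectomy ranks were in order 1158, 1449.5, 999, 1404 and 882. The 48 h sham ranks were 672.5, 346.5, 404, 502 and 529.5, and a less extreme sham rank is partly built in too. With the sham list, the sites on chromosomes 1 and 10 were not lower at each later time.

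The sites that moved most can be set beside their ranks in the sham lists, among the same 1859 sites. Of the largest losses from basal liver to 6 h, 4 were ranked in all 5 lists. The site of chromosome 10 at 79227703 ranked 183 in basal liver, 1638.5 at 6 h and 108.5 at 48 h after hepatectomy, and 355 at 6 h and 428.5 at 48 h after the sham operation. That of chromosome 10 at 74966411 ranked 1592 at 6 h after hepatectomy and 418 at 6 h after sham, and that of chromosome 12 at 119428011 ranked 1335 and 223. At these 3 sites the sham rank of 6 h was far nearer the top than the hepatectomy rank. At the site of chromosome 4 at 117670153 both 6 h libraries ranked it low, at 1638.5 and 1738. At 48 h after hepatectomy the sites at 74966411, 119428011 and 117670153 ranked 285, 224.5 and 405. At 48 h after sham they ranked 1006.5, 652.5 and 1031, still nearer the top than at 6 h after hepatectomy. The site of chromosome 12 at 77374955 had no 48 h sham peak. Of the largest gains, 4 were ranked in all 5 lists too. The site of chromosome 4 at 147965174 ranked 1697.5 in basal liver, 137 at 6 h after hepatectomy and 369.5 at 6 h after sham. In the same lists the site of chromosome 5 at 34278486 ranked 1654, 170 and 432, that of chromosome 7 at 20402570 ranked 1208, 162 and 255, and that of chromosome 2 at 32821495 ranked 991.5, 43 and 174.5. All these sites were chosen by their 6 h hepatectomy rank, so a less extreme sham rank is partly built in. Both operations also share the basal library here, so these values are given side by side only.

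A 6 h sham peak lay at 76.9% of all 22063 sites with a 6 h hepatectomy peak, a 48 h sham peak at 20.0% and a silenced 6 h peak at 18.9%, and sites of 6 h alone were below each of these shares. Of the 15433, 10540 (68.3%, 67.6 to 69.0%) had a peak in the 6 h sham list, 951 (6.16%) in the 48 h sham list and 1051 (6.81%) in the silenced 6 h list. Such shares fell with the 6 h score, which was low in this class. Among 6 h sites without a basal peak, 99.7% of the highest decile and 48.7% of the lowest had a 6 h sham peak. For a silenced 6 h peak these shares were 78.5% and 0.731%. The part of score in the class shares was not tested. The highest-scoring site of the class, on chromosome 18 (60368489 to 60369464, 6 h score 260.42, rank 296.5 of the 6 h list), had a 6 h sham peak with a score of 123.65 and a silenced 6 h peak with a score of 69.19. The next were on chromosome 15 (59613746 to 59614452, score 196.16), again on chromosome 15 (59170003 to 59170660, score 182.4), on chromosome 11 (86437657 to 86438452, score 176.75) and on chromosome 10 (122513253 to 122513803, score 158.13). All 5 had a 6 h sham peak and a silenced 6 h peak, and the site on chromosome 10 had a 48 h sham peak as well.

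Sites gained at 6 h and still present at 48 h were found in the 6 h sham list at 95.9% (95.3 to 96.5%), in the 48 h sham list at 34.4% (33.0 to 35.8%) and in the silenced 6 h list at 32.4% (31.0 to 33.9%). Their median 6 h score was 33.03, against 14.95 for sites of 6 h alone, and the part of score in these shares was not tested. Their place in the 48 h list varied among the leading ones. The site with the highest 6 h score, on chromosome 11 (118304300 to 118305080), scored 413.49 at 6 h and 27.99 at 48 h, where it had rank 838.5 of 7212. A site on chromosome 16 (5532555 to 5533440) scored 332.42 and 71.39, at rank 199.5 of the 48 h list. One on chromosome 13 (64254218 to 64254968) scored 315.73 and 11.53, at rank 4023.5, and one on chromosome 2 (32243052 to 32245172) scored 285.79 and 14.21, at rank 2699.5. The fifth, on chromosome 18 (85119718 to 85121452), scored 268.18 and 31.58, at rank 708.

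Sites with a basal and a 6 h peak but none at 48 h numbered 263. Of these, 157 (59.7%, 53.5 to 65.7%) had a peak in the 48 h sham list, and 96 (36.5%, 30.7 to 42.6%) one in the silenced 6 h list. At sites present throughout these shares were 86.6% and 77.2%, and at all sites with a 6 h peak 20.0% and 18.9%. Of all 2410 6 h sites with a basal peak, 83.7% had a 48 h sham peak. Median 6 h scores were 32.15 for the 263 sites and 95.68 for sites present throughout, and the part of score was not tested. The highest-scoring of the 263 at 6 h lay on chromosome 17 (57136300 to 57136848), with a basal score of 10.02, a 6 h score of 226.74 and a 48 h sham score of 52.85. The next lay on chromosome 6 (138022730 to 138023572, 6 h score 207.63), chromosome 15 (34167483 to 34168084, 151.22), chromosome 8 (3500156 to 3500659, 140.74) and chromosome 19 (42734162 to 42734895, 139.91). All 5 had a peak in the 48 h sham list.

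Sites without a 6 h hepatectomy peak were few and low in score. Of the 622 sites of 48 h alone, 366 (58.8%, 54.9 to 62.7%) had a 6 h sham peak, against 76.4% of all sites of the course. A 48 h sham peak was at 29 (4.66%) and a silenced 6 h peak at 8 (1.29%), against 19.6% and 18.4% of all sites of the course. The nearest 6 h hepatectomy peak was a median of 10033 bp away and lay within 1 kb at 75 sites (12.1%). No other of the 8 lists had a peak at 253 of the 622, a count that was not made for the other classes. The highest-scoring, on chromosome 8 (19979891 to 19980267, 48 h score 37.13), was 1 of these 253. The 20 sites of basal liver alone had basal scores of at most 14.5, and 13 of them had a 6 h sham peak. The 23 sites of basal liver and 48 h had basal scores of at most 23.12, and 18 had a 6 h sham peak. The highest-scoring of them lay on chromosome 19 (21234033 to 21234443).

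Another site of the course lay within 10 kb of 53.0% of the sites present throughout, 58.0% of those shared by 6 h and 48 h, 59.2% of those of 6 h alone and 50.6% of those shared by basal liver and 6 h. For sites of 48 h alone this share was 52.1%, for those of basal liver and 48 h 43.5% and for those of basal liver alone 50.0%. Chromosome 11 held 8.52% of the sites present throughout and 7.17% of those of 6 h alone, and chromosome X held 0.745% and 1.30%. Other chromosomes differed too, such as chromosome 7 (7.36% and 6.36%) and chromosome 2 (6.19% and 7.21%). Shares over all sites of the course were not counted, and chromosome size was not taken into account.

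The sham course, which shares the basal list, gave the same order of the 3 largest classes. It had 18214 sites of 6 h alone (78.5% of 23212), 2444 shared by 6 h and 48 h (10.5%) and 2016 present throughout (8.69%), beside 67.9%, 18.6% and 9.45% in the hepatectomy course. Sites of 48 h alone made up 0.435% beside 2.74%. The 48 h lists differ in length, with 4622 sham and 7212 hepatectomy peaks, and the difference between the courses was not tested.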

How the data were processed

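XBP1 ChIP-seq peaks of 8 mouse liver libraries were analysed, 3 of them in the hepatectomy course; input DNA was not used here. Bowtie2, MACS 1.4.2 and the build mm9 are named in the submitters' processing notes. Their settings, and any control for peak calling, are not stated there. The deposited lists hold 1 score per peak, read as −log10 of a p-value because the lowest score was 5.08 or 5.27 in the 3 lists. The peak caller may write 10 times that value, so the scale is uncertain; ranks are the same on either scale. Coordinates are 1-based mm9. The gene table and promoter sequences at hand are on GRCm38, so no gene or sequence was assigned, and the gene lists, markers and motifs planned for an mm9 reference were not used.

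Peaks overlapping by 1 bp were merged, and a site took the highest score of its peaks per list. Ranks are within a list. Shares carry exact (Clopper-Pearson) intervals. Groups came from the sample titles. Named sites were the 5 highest-scoring per class, the 5 best by mean rank, and the 5 largest rank gains and losses among sites in the highest decile of at least 1 list. Members, classes and rules were chosen with earlier results of these data known, and the comparison within deciles of 6 h score, that of 5 lists and the use of the 48 h sham list in place of the 48 h hepatectomy list after seeing the data. The counting was tested on simulated data, and the site count equalled that of bedtools 2.31.1. Python 3.11.15, NumPy 2.4.6, pandas 2.3.3, SciPy 1.17.1 and matplotlib 3.10.9 were used. Alternatives were peaks resized to 500 bp, equal list lengths, a reciprocal overlap of 50%, a score of 10 or more, peaks up to 2 kb wide on the autosomes and X, ranking by width, and sites with 1 peak per list.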

Additional observations from a re-analysis of the deposited data

How the results depend on the processing

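Of 73 alternative values, 45 stayed within 1.5 times the count given, or within the interval of the share or correlation, and 28 did not. No paired analysis was possible because each condition has 1 library.

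Requiring a reciprocal overlap of 50% gave 1424 sites in all 3 lists, 2344 at 6 h and 48 h, 167 in basal liver and at 6 h, 2878 at 48 h alone, 325 in basal liver alone and 566 in basal liver and at 48 h. A wide 6 h peak cannot overlap a narrow one by that share, so such pairs are split by construction: the 3 classes shared with 6 h fell, and that of basal liver and 48 h rose from 23. Equal numbers of highest-scoring peaks gave 1203 sites in all 3 lists, 684 at 6 h alone, 309 at 6 h and 48 h, 641 in basal liver alone and 324 in basal liver and at 48 h. A score of at least 10 gave 364 sites at 48 h alone, 13 in basal liver and at 48 h, and a 48 h share of 17.4% among 6 h sites without a basal peak. With peaks up to 2 kb wide on the autosomes and X, 40 sites were in basal liver and at 48 h. Ranked by summed peak width, rho was 0.48 for basal liver and 6 h, 0.59 for 6 h and 48 h and 0.55 for basal liver and 48 h; the cause was not tested. The difference in 48 h share by basal presence was 24.1 points within 50 bins of the 6 h score and 31.1 points with a score of at least 10, beside 28.9 points, and 28.6 points over the 8 deciles with at least 20 sites of either kind. With the 48 h sham list in place of the 48 h hepatectomy list, chosen after seeing the data, there were 2396 sites at 6 h and 48 h, 130 at 48 h alone, 37 in basal liver alone and 6 in basal liver and at 48 h. Spearman rank correlations were then 0.76 for 6 h and 48 h and 0.70 for basal liver and 48 h, the 48 h share among 6 h sites without a basal peak was 12.2%, and the difference by basal presence was 39.6 points.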
